A study of Mus musculus with 1073 samples.

Results

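The 6 genes described here, *Sox7*, *Sox17*, *Sox18*, *Sox4*, *Sox11* and *Sox6*, encode SOX transcription factors of mesoderm, endothelium and blood. They were chosen by name, and all 6 were present among the 15967 genes of the filtered table, which holds 10 Sox genes in all. The data are single-cell RNA-seq of mouse yolk sac cells sorted by flow cytometry, with 926 of 1073 captured cells kept by the authors' quality filter, in 13 populations between E7.25 and E10.5. *Flk1*-GFP+ mesoderm came from *Flk1*-GFP/+ embryos at E7.25 and E7.75 (287 cells, of which 140 were from E7.75), where GFP reports the locus of *Kdr*, the receptor for VEGF. All later cells were C57BL/6. Haematopoietic progenitor cells (HPC, labelled EMP) were TER119-CDH5+CD41+ at E8.25 (73 cells) and E8.5 (89 cells), and TER119-CDH5-CD45+CD41low at E9.5 (46 cells) and E10.5 (87 cells). Endothelium (Endo) was TER119-CD41-CDH5+ at E8.5 (79 cells) and also CD45- at E10.5 (61 cells). Megakaryocytes (Mk) were TER119-CDH5-CD41+ at E8.5 (37 cells) and TER119-CDH5-CD45-CD41high at E10.5 (73 cells). Primitive erythroid cells (EryP) were TER119+CDH5-CD41- at E8.5 (66 cells) and E10.5 (3 cells, also CD45-), and macrophages (Mac) were TER119-CDH5-CD41-CD45+ at E10.5 (25 cells).

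SOX proteins bind DNA through a domain of high mobility group type, the HMG box, which bends the minor groove. *Sox7*, *Sox17* and *Sox18* form the SoxF group, known for its overlapping roles in vessel formation, in arterial identity and in the endothelium that gives rise to blood, with *Sox17* also serving in definitive endoderm. *Sox4* and *Sox11* form the SoxC group, which is active in progenitors of many tissues, and *Sox6* belongs to the SoxD group, known in erythroid cells as a partner of *Bcl11a* in silencing embryonic globin genes.

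In GRCm38 (GENCODE M21), *Sox7* lies at chr14:63943673-63950732 on the plus strand. The other 5 genes are on the minus strand: *Sox17* at chr1:4490931-4497354, *Sox18* at chr2:181669836-181671640, *Sox4* at chr13:28948919-28953713, *Sox11* at chr12:27334264-27342574 and *Sox6* at chr7:115470872-116038796.

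*Sox4* and *Sox11* had the longest common run among the 10 Sox genes, 48 bases, which is shorter than the 100-base reads. *Sox4* had an overlapping gene: the lincRNA *Gm26735* on the opposite strand (chr13:28943048-28951671) covered 2616 of its 4795 exonic bases, 54.6%, all of them in the 3′ UTR. The library kit does not mark strand, so reads from those bases cannot be told apart by gene. *Gm26735* had 3 counts in all captured cells, against 3681 for *Sox4*. An overlap of 804 exonic bases between *Sox17* and *Gm37587* covered 16.8% of the gene.

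Total counts per cell over the filtered genes ranged from 483830 to 5943204 (median 1887350), and a count is a read, not a molecule. The embryos or pools behind the cells are not named, so a population is 1 sample. Cells are not replicates, no test between populations was made, and the intervals below cover counting error only. Sequencing used a pair of flow cells. The first held the libraries of E8.5, E8.25 and E7.25, the other those of E10.5, E9.5 and E7.75, and between them stage and sequencing run cannot be told apart. Within a flow cell the populations were on separate lanes, except that E10.5 Mac and EryP shared a lane. Population and lane therefore cannot be told apart in the comparisons below. The 96 index pairs were each used in several lanes and in none more than once. The 6 endothelial markers (*Pecam1*, *Cdh5*, *Tek*, *Kdr*, *Ramp2*, *Plvap*) were found in 100% of E8.5 Endo cells and on average in 99.5% of E10.5 Endo cells. Of the 4 erythroid markers (*Alas2*, *Klf1*, *Hba-x*, *Hbb-bh1*), the average share in E8.5 Mk cells was 93.2%, above the 64.9% of the 4 megakaryocyte markers (*Pf4*, *Gp9*, *Gp1bb*, *Vwf*) there, and its part in the E8.5 Mk values below was not tested.

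The SoxF genes had their highest mean levels and shares of cells in endothelium. At E8.5, *Sox18*, a factor of vessel and lymphatic development, was found (1 count or more) in 73 of 79 Endo cells, 92.4% (exact 95% interval 84.2 to 97.2%). *Sox17* was found in 59 of the cells, 74.7% (63.6 to 83.8%), and *Sox7* in 47, 59.5% (47.9 to 70.4%). The level of *Sox18* ran from 0 to 392 CPM over the Endo cells (median 18.6, mean 38.2), that of *Sox17* from 0 to 152.7 CPM (median 2.99, mean 12.3) and that of *Sox7* from 0 to 287 CPM (median 1.28, mean 38.8). *Sox7* and *Sox18* thus had nearly the same mean, but that of *Sox7* came from fewer cells: the 8 highest of 79 cells held 58.7% of its level, against 42.1% for *Sox18*. Per kb of exon, the order of mean levels was *Sox18* (23.6 CPM per kb), *Sox7* (11.8) and *Sox17* (2.59).

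**Figure D1:**
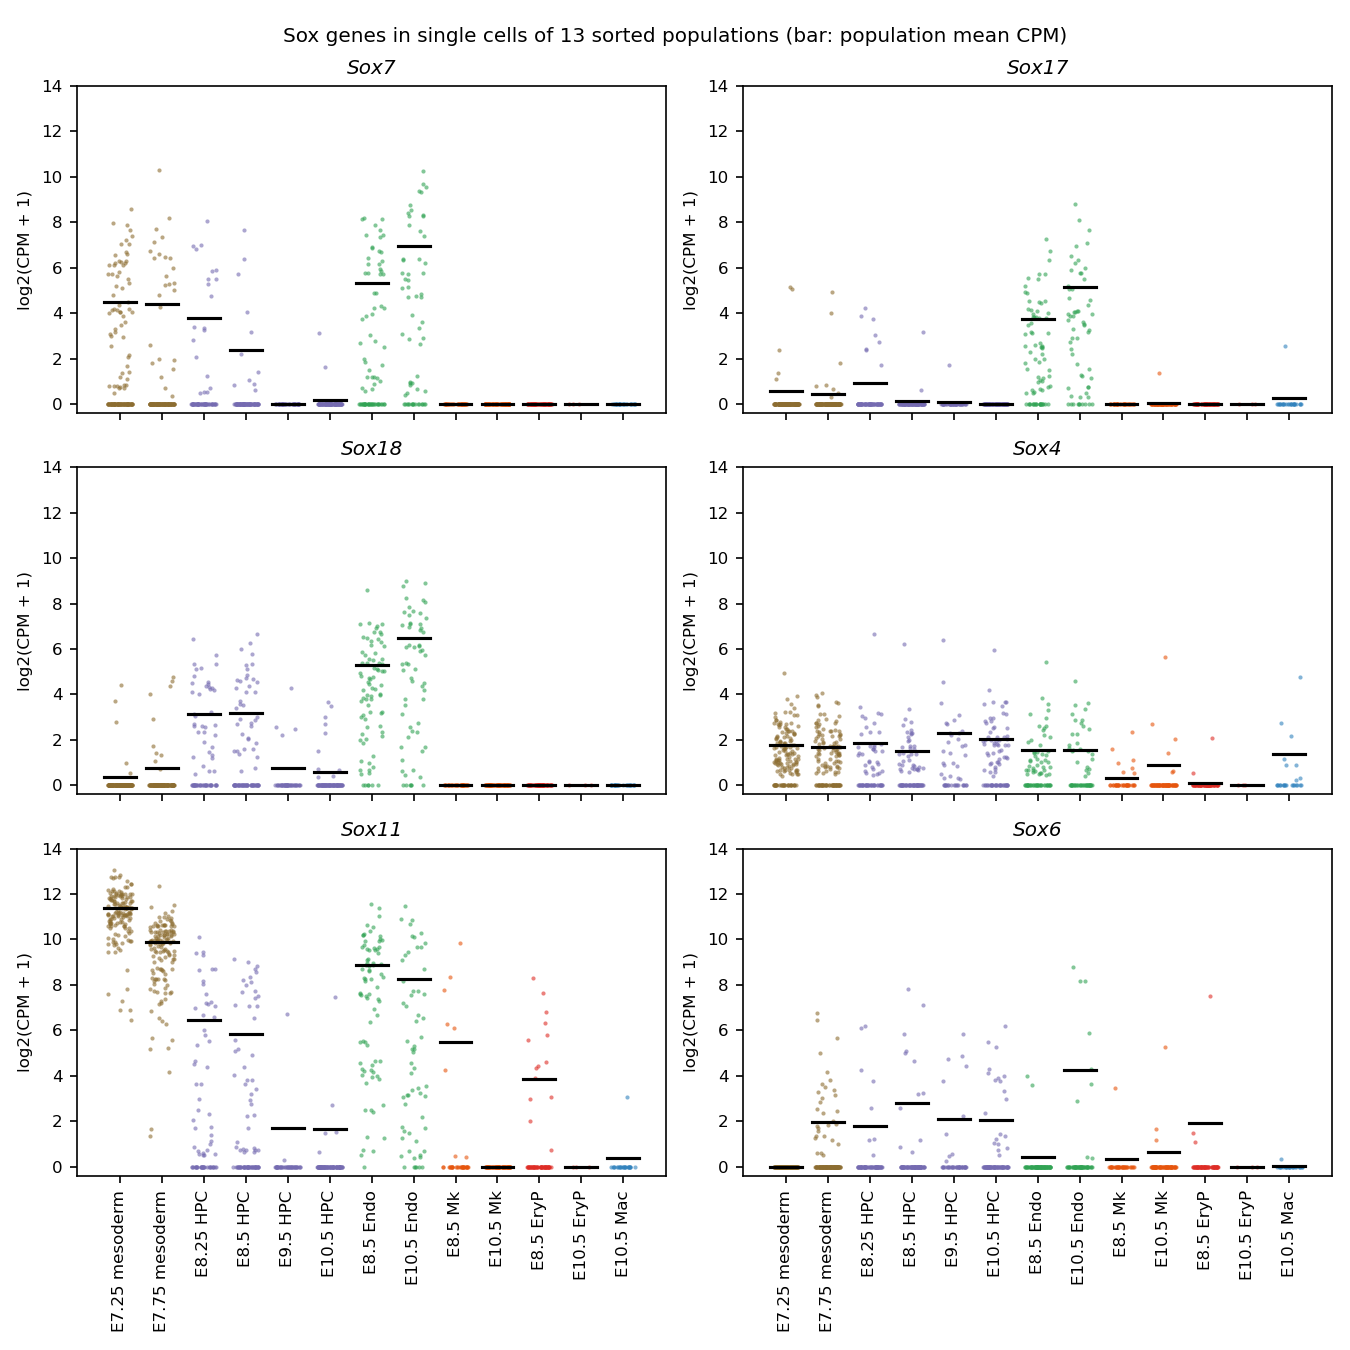
Level of each Sox gene as log2(CPM + 1) (y axis) in every cell of the 13 populations (x axis); each point is a cell and each black bar is the log2 of the population's mean CPM + 1. The bars for *Sox7*, *Sox17* and *Sox18* are highest in E10.5 Endo and that for *Sox11* in E7.25 mesoderm, while the highest single *Sox7* cell (1276 CPM) is in E7.75 mesoderm.

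The SoxF genes were also counted together within cells. In E8.5 Endo, 34 of 79 cells (43.0%, interval 31.9 to 54.7%) had all 3, 33 had 2, 11 had 1 and 1 cell had none. The commonest pair without the other gene was *Sox17* with *Sox18*, in 20 cells. E10.5 Endo had all 3 genes in 35 of 61 cells (57.4%, 44.1 to 70.0%), 2 in 21, 1 in 4 and none in 1 cell. The product of the 3 single-gene shares is 41.1% at E8.5 and 55.6% at E10.5, close to the shares with all 3. Requiring 10 counts of each gene lowered these shares to 11.4% and 18.0%. With every cell thinned to 840000 counts, which leaves 57 cells, the E10.5 share was 42.1%. Outside endothelium, the share with all 3 lay above the product where such cells were found, but on few cells. It was 6.85% (5 of 73 cells) against 1.56% in E8.25 HPC and 2.14% (3 of 140) against 0.0758% in E7.75 mesoderm. E7.25 mesoderm and E8.5 HPC had 1 such cell each.

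**Figure D2:**
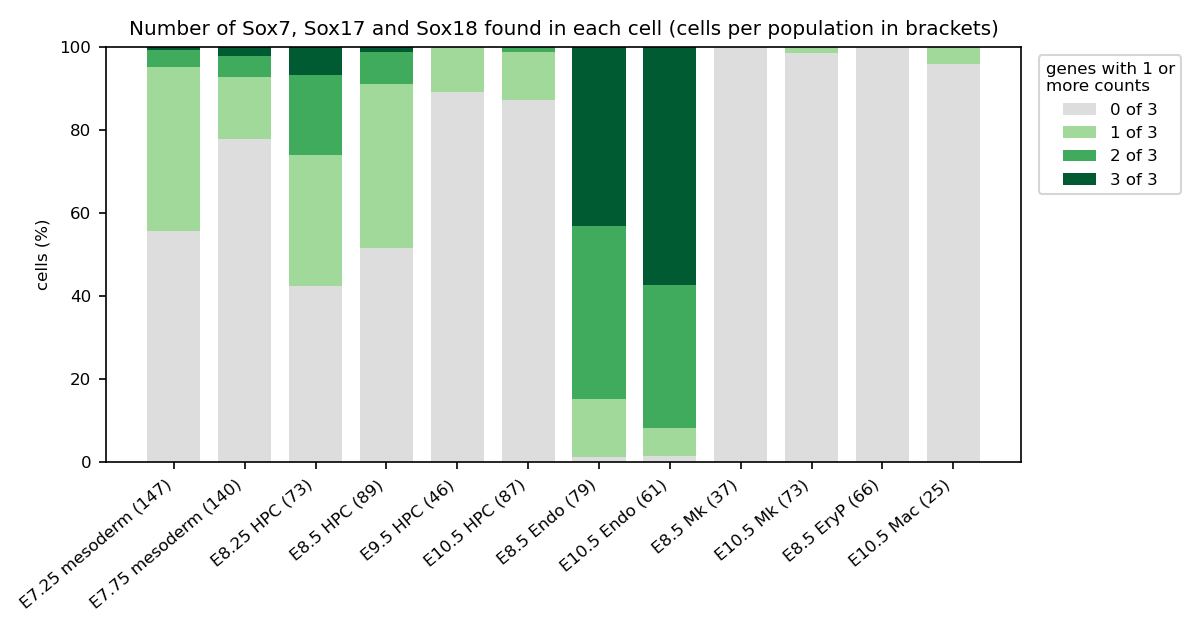
Share of cells (y axis, %) with 0, 1, 2 or all 3 of *Sox7*, *Sox17* and *Sox18* at 1 count or more, in the 12 populations of more than 3 cells (x axis, cells in brackets). All but 1 cell in each of the Endo populations hold at least 1 of the genes, and the E8.5 Mk and EryP bars hold none.

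Against E8.5 HPC, which were also sorted as CDH5+, 4 of the 6 genes were higher in E8.5 Endo past 2-fold on the log2(CPM + 1) scale, with a mean of 10 CPM or more in either population. *Sox6*, under that level in both, had 0.325 against 6.00 CPM (log2 ratio -2.40). Among all genes at that level, 17.9% were higher and 10.4% lower by that measure. *Sox17* had the largest difference, with a mean of 12.3 CPM in Endo against 0.0969 in HPC (log2 ratio 3.60). In HPC it was found in only 2 of 89 cells, with 22 counts in all (exact Poisson interval 13.8 to 33.3), against 1563 counts in Endo. *Sox11* differed by 3.05 (474 against 56.2 CPM), *Sox7* by 2.95 (38.8 against 4.14 CPM) and *Sox18* by 2.09 (38.2 against 8.18 CPM). The HPC mean of *Sox7* rested on few cells, since 1 cell had 202 CPM and the mean without it was 1.89 CPM.

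From E8.5 to E10.5 the mean level of each SoxF gene in endothelium was higher past 2-fold while its share of cells stayed within overlapping intervals. Across all genes, 21.2% were higher and 16.4% lower in E10.5 Endo. *Sox7* went from 38.8 to 124.2 CPM (log2 ratio 1.65), with a median of 11.0 and a highest cell of 1211 CPM at E10.5. *Sox17* went from 12.3 to 34.2 CPM (1.40) and *Sox18* from 38.2 to 87.5 CPM (1.18). Shares at E10.5 were 73.8% for *Sox7* (45 of 61 cells, 60.9 to 84.2%), 83.6% for *Sox17* (51 cells, 71.9 to 91.8%) and 90.2% for *Sox18* (55 cells, 79.8 to 96.3%). E10.5 Endo cells had fewer genes detected per cell (median 6412 against 8437 at E8.5), and the part of this in the difference was not tested. With the mean taken over log2 values, the median of all genes moved to -0.85 and the SoxF genes stayed above 0, at 1.17 for *Sox7*, 0.93 for *Sox17* and 0.64 for *Sox18*, while *Sox11* was at -2.14 (-0.63 by mean CPM).

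Against E10.5 HPC, which were sorted as CDH5-, the SoxF genes were far higher in E10.5 Endo, where 30.4% of all genes were higher and 20.4% lower. *Sox7* had a log2 ratio of 6.81 (124.2 against 0.113 CPM) and *Sox18* of 5.90 (87.5 against 0.487 CPM). *Sox17* was found in 0 of 87 HPC, which allows a share of up to 3.45%, and was at least 1466-fold higher in Endo against a floor of 3 counts over the population. The difference was not particular to SoxF: *Sox11* had a log2 ratio of 6.61 (305 against 2.13 CPM) and *Sox6* of 2.22. *Sox4*, under the level filter, had -0.48.

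**Figure D3:**
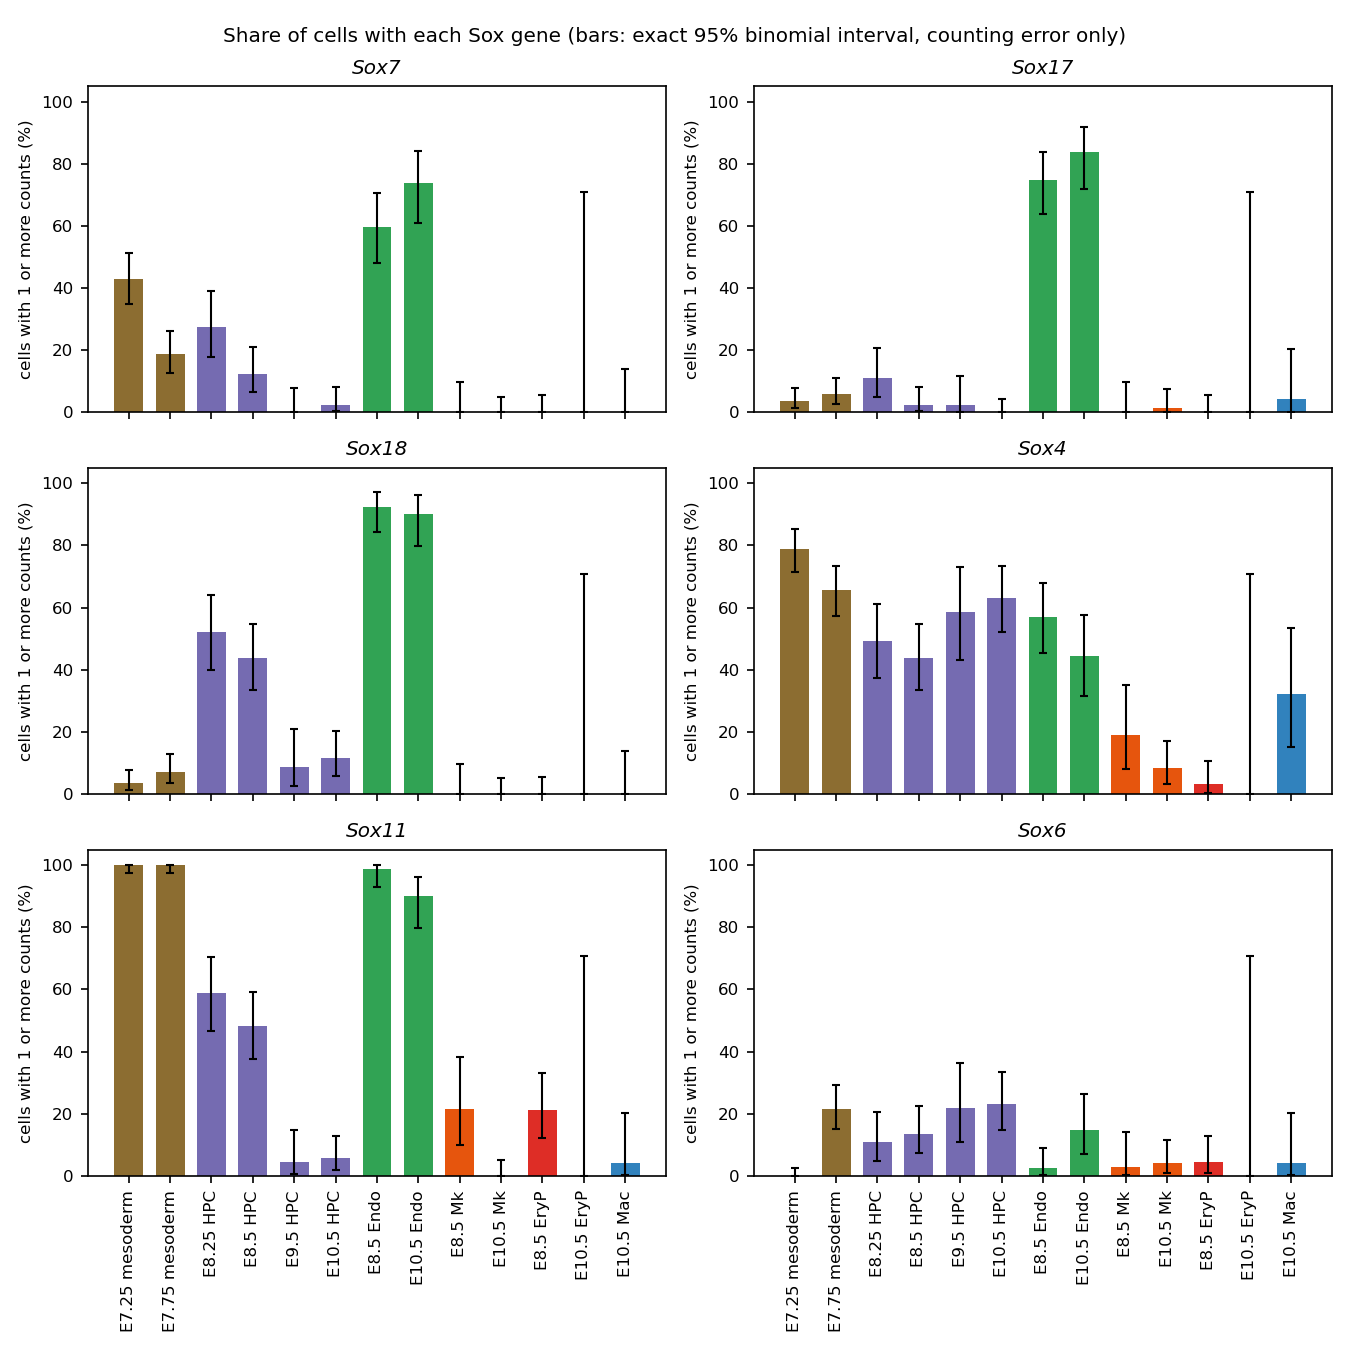
Share of cells with 1 or more counts of each Sox gene (y axis, %) in the 13 populations (x axis), with exact 95% binomial intervals as error bars. *Sox18* reaches 92.4% in E8.5 Endo and 52.1% in E8.25 HPC, and *Sox11* 100% in mesoderm.

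In *Flk1*-GFP+ mesoderm, *Sox7* was the SoxF gene in use. It was found in 42.9% of E7.25 cells (63 cells, interval 34.7 to 51.3%). At E7.75 it was found in 26 of 140, 18.6% (12.5 to 26.0%), so the intervals did not overlap. The lanes agreed within a stage: 45.2% and 40.5% at E7.25, and 18.9% and 18.4% at E7.75. The mean level did not follow the share, at 21.6 CPM (highest cell 382) and 20.4 CPM (highest cell 1276), because the mean within cells that had the gene went from 50.4 to 110 CPM. A single cell carried much of the later value, and without the highest cell of each stage the means were 19.1 and 11.4 CPM. Its mean at E7.75 was 8.61 CPM in lane 7 and 27.6 CPM in lane 8. The other genes of the group were rarer: at E7.25 *Sox17* and *Sox18* were each found in 5 cells, and at E7.75 in 8 and 10.

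*Tal1* and *Cdh5* were found in a larger share of the mesoderm cells with *Sox7* than of those without. At E7.25, *Tal1*, a regulator of blood and endothelial fate, was found in 79.4% of the 63 cells with *Sox7* and 42.9% of the 84 without, and *Cdh5*, the VE-cadherin gene, in 47.6% and 7.14%. *Sox9*, another Sox gene, went the other way, at 57.1% and 82.1%. The cells with and without *Sox7* had similar depth (median 1794500 and 1830680 counts). At E7.75, *Tal1* was found in 25 of 26 cells with *Sox7* (96.2%) and 53.5% of those without, and *Cdh5* in 73.1% and 23.7%, although the cells with *Sox7* were the shallower (1514900 against 2130070 counts). *Gata1*, the erythroid and megakaryocytic GATA factor, was at 44.4% and 20.2% at E7.25 and at 65.4% and 63.2% at E7.75. *Etv2*, the ETS factor of early haemato-endothelial fate, was at 77.8% and 61.9% at E7.25 and at 73.1% and 60.5% at E7.75, and *Runx1* at 81.0% and 63.1%, then 76.9% and 73.7%. All 10 E7.75 cells with *Sox18* held *Tal1* and *Etv2*. Since *Sox17* also marks endoderm, 8 endoderm genes (*Apoa1*, *Ttr*, *Afp*, *Apob*, *Foxa2*, *Cer1*, *Amn*, *Cubn*) were looked for in the counts of all genes: none of the 287 mesoderm cells had 3 or more of them, and 3 of the 5 E7.25 cells and 7 of the 8 E7.75 cells with *Sox17* had none. In E8.5 Endo, 3 cells had 3 or more, and all 3 had *Sox17*, as did the 1 such cell of E10.5 Endo. Of the Endo cells with *Sox17*, 38 of 59 at E8.5 and 44 of 51 at E10.5 had none of these genes.

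Progenitors held *Sox18* more than the other SoxF genes. It was found in 38 of 73 HPC at E8.25, 52.1% (40.0 to 63.9%), and 39 of 89 at E8.5, 43.8% (33.3 to 54.7%), with means of 7.88 and 8.18 CPM and medians of 0.531 and 0 CPM. *Sox7* was found in 20 cells (27.4%) at E8.25 and 11 (12.4%) at E8.5. Its mean of 12.8 CPM at E8.25 against 4.14 CPM at E8.5 gave a log2 ratio of -1.43, and it was the 1 member of 6 past 2-fold in that comparison, where 2.86% of all genes were higher and 3.82% lower. With a pseudocount of 10 this ratio was -0.69, and with means of log2 values -0.71. *Sox17* was found in 8 and 2 cells. All 3 genes occurred together in 5 of 73 cells at E8.25 and 1 of 89 at E8.5. In the CDH5- HPC of E9.5 and E10.5, *Sox18* was found in 4 of 46 and 10 of 87 cells, *Sox7* in 0 and 2, and *Sox17* in 1 and 0. Between E9.5 and E10.5 none of the 6 genes reached a mean of 10 CPM, beside 5.86% of all genes higher and 8.73% lower at E10.5. Stage and gate changed together between E8.5 and E9.5, and their parts cannot be told apart.

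HPC with *Sox18* less often held *Gata1*. At E8.25 it was found in 20 of 38 cells with *Sox18* (52.6%) and 28 of 35 without (80.0%), and at E8.5 in 24 of 39 (61.5%) and 45 of 50 (90.0%). For *Sox7*, the E8.25 shares were 8 of 20 (40.0%) and 40 of 53 (75.5%), and those at E8.5 were 7 of 11 (63.6%) and 62 of 78 (79.5%). *Sox4*, of the SoxC group, had 58.3% and 73.0% at E8.25 and 69.2% and 84.0% at E8.5. Depth was alike in HPC with and without *Sox18*, with medians of 1986130 and 1900960 counts at E8.25 and of 1581570 and 1552500 at E8.5. *Runx1*, the regulator of blood emergence, was found in all 89 E8.5 HPC, and *Cdh5* in 97.4% of those with *Sox18* and 90.0% of those without.

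In the differentiated blood lineages the SoxF genes were at or near 0. *Sox7* and *Sox18* had no count in any Mk, EryP or Mac cell. A count of 0 allows a share of up to 8.11% in E8.5 Mk, 4.11% in E10.5 Mk, 4.55% in E8.5 EryP and 12.0% in E10.5 Mac. *Sox17* had 1 count in 1 E10.5 Mk cell and 34 counts in 1 Mac cell, the deepest cell of all (5943204 counts). Against E8.5 HPC, *Sox18* was at least 334-fold lower in E8.5 Mk and at least 308-fold lower in E8.5 EryP, and *Sox7* at least 169-fold and 155.9-fold lower. The *Sox7* bounds rest on an HPC mean of 4.14 CPM, which is 1.89 CPM without its highest cell. Both HPC means are below the 10 CPM required for the counts of calls. None of the 6 genes reached a mean of 10 CPM in E10.5 Mk, Mac or HPC. None of them could therefore be called in Mk or Mac against E10.5 HPC. Among all genes at that level, 14.8% were higher and 11.8% lower in Mk, and 22.4% higher and 24.4% lower in Mac. All 6 genes had 0 counts in the 3 E10.5 EryP cells, too few to describe.

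Among 20 endothelial and arterial genes linked to SoxF in the literature, 13 were higher and 1 lower past 2-fold in E8.5 Endo against E8.5 HPC, with 16 passing the level filter, where 17.9% of all genes were higher and 10.4% lower. The list's median log2 ratio was 2.18, against -0.03 over all genes tested. As the list is of endothelial genes, its members can be higher in sorted Endo by the sort alone. A link to the SoxF genes was not tested. *Dll4*, a Notch ligand of arteries, had 42.3 against 2.02 CPM, *Notch4* 12.6 against 1.64 CPM, *Cldn5*, a tight junction gene, 59.9 against 16.0 CPM, and *Flt1*, a VEGF receptor, 484 against 53.4 CPM. *Mef2c*, a MADS-box factor of many lineages, was lower (279 against 566 CPM). In E10.5 Endo against E8.5 Endo, 14 of the 20 were higher and none lower, beside 21.2% of all genes higher and 16.4% lower (median 1.48, against 0.06 over all genes). *Gja5*, an arterial connexin, was at 1.76 and 322 CPM, *Gja4* at 15.8 and 319 CPM, and *Efnb2*, the arterial ephrin, at 110 and 519 CPM. *Cdh5* (528 and 953 CPM) and *Cldn5* (59.9 and 80.5 CPM) were within 2-fold. In HPC from E8.25 to E8.5, where *Sox7* was lower, 4 of the 20 were lower (*Dll4*, *Efnb2*, *Gja4* and *Nrp1*) and none higher among the 12 that passed the filter, beside 3.82% of all genes lower and 2.86% higher, with *Dll4* at 12.9 and 2.02 CPM. In E8.5 Mk against HPC 8 were lower and none higher, beside 6.28% of all genes higher and 11.1% lower. These Mk were sorted as CDH5- and the HPC as CDH5+, and *Cdh5* is among the 8. The part of the gate cannot be told apart in this count.

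**Figure D4:**
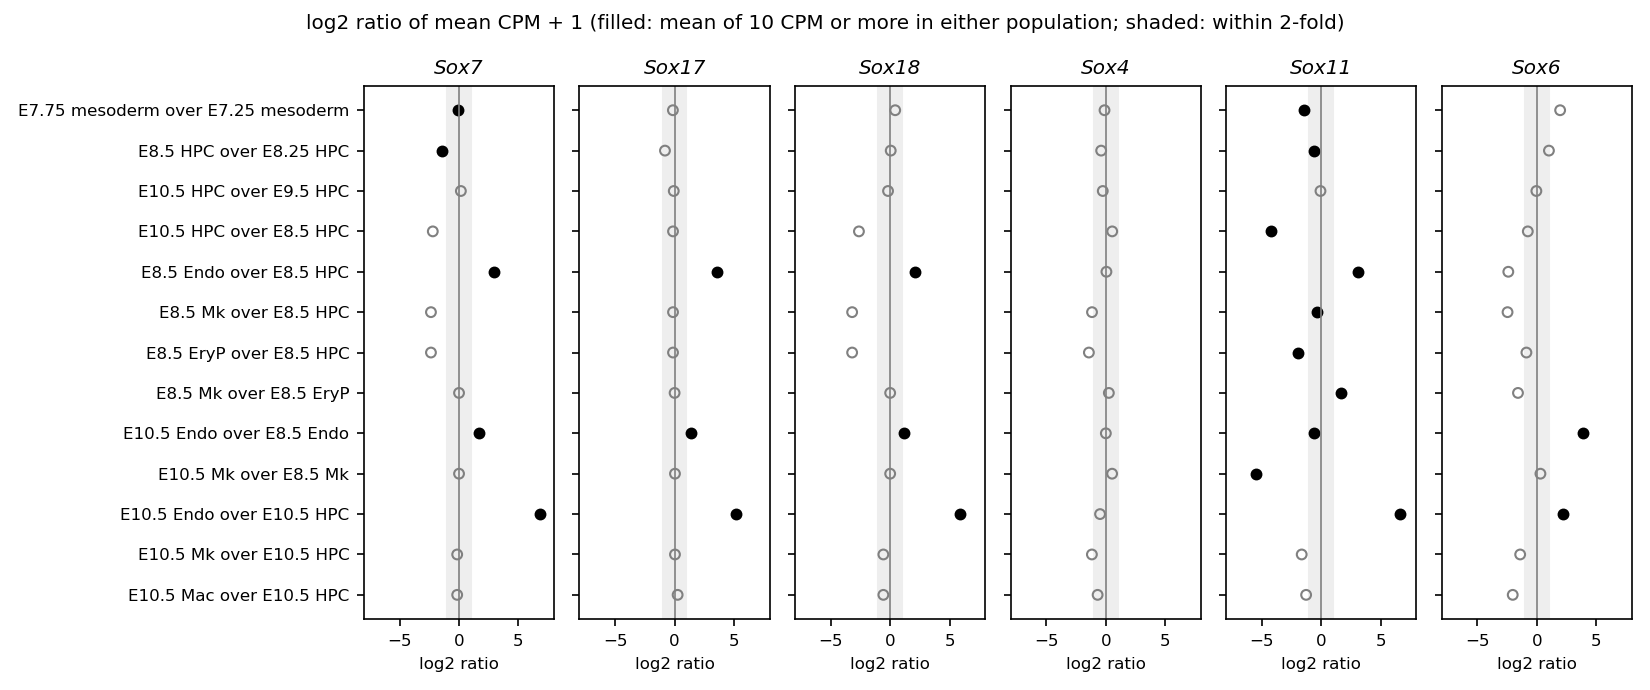
log2 ratio of mean CPM + 1 (x axis) of the 6 Sox genes in the 13 comparisons between populations (y axis); filled points have a mean of 10 CPM or more in either population, open points do not, and the shaded band marks ratios within 2-fold. The SoxF genes lie right of the band in the 3 endothelial comparisons, and *Sox4* has no filled point.

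*Sox11* was a gene of mesoderm. It was found in 100% of E7.25 and of E7.75 mesoderm cells. Its level ran from 85.8 to 8460 CPM at E7.25 (median 2358, mean 2675) and from 1.57 to 5212 CPM at E7.75 (median 918, mean 948). The log2 ratio of -1.50 made it the 1 member past 2-fold between these stages, where 4.92% of all genes were higher and 5.46% lower. By lane, the means were 2738 and 2613 CPM at E7.25 and 957 and 943 CPM at E7.75. The stages were on different flow cells, so stage and flow cell cannot be told apart. In endothelium it was found in 78 of 79 cells at E8.5 (98.7%) and 55 of 61 at E10.5 (90.2%), with means of 474 and 305 CPM. The E10.5 median was 22.9 CPM against 291 at E8.5, and the 7 highest of 61 cells held 63.1% of the E10.5 level.

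In blood, *Sox11* was split between cells. At E8.25 it was found in 43 of 73 HPC (58.9%, 46.8 to 70.3%) with a mean of 86.3 CPM, a median of 0.659 and a highest cell of 1114. At E8.5 it was found in 43 of 89 (48.3%, 37.6 to 59.2%) with a mean of 56.2 CPM, a median of 0 and a highest cell of 558. The E9.5 and E10.5 HPC held it in 2 of 46 and 5 of 87 cells, and the E10.5 mean of 2.13 CPM was lower than at E8.5 by a log2 ratio of -4.19, where 12.0% of all genes were lower and 9.02% higher. A single cell with 176 CPM gave nearly all of the E10.5 value, and without it the mean was 0.114 CPM. *Sox11* was found in 8 of 37 E8.5 Mk cells (21.6%, 9.83 to 38.2%) and 14 of 66 E8.5 EryP cells (21.2%, 12.1 to 33.0%). The intervals of those shares overlapped, while the means differed (44.1 and 13.5 CPM, log2 ratio 1.63, where 14.0% of all genes were higher and 8.54% lower in Mk). The Mk mean rested on few cells, being 19.6 CPM without its highest cell (926 CPM), against 8.94 CPM in EryP. Against HPC, EryP were lower (-1.98, where 18.1% of all genes were lower and 8.60% higher) and Mk were within 2-fold. E10.5 Mk had no count in 73 cells (a share of up to 4.11% is allowed), at least 1306-fold lower than in E8.5 Mk (12.7% of all genes were lower and 16.3% higher).

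*Sox4* was found in many populations but never at a high level. It was found in 78.9% of E7.25 mesoderm cells (71.4 to 85.2%), 65.7% of E7.75 mesoderm cells, and 43.8% to 63.2% of HPC at the 4 stages. Endo shares were 57.0% at E8.5 and 44.3% at E10.5. They were 32.0% in Mac, 18.9% in E8.5 Mk, 8.22% in E10.5 Mk and 3.03% in E8.5 EryP. Mean levels stayed between 0.0560 CPM in E8.5 EryP and 3.89 CPM in E9.5 HPC (2.12 CPM without its highest cell, against 2.44 in E10.5 HPC), under the 10 CPM filter everywhere, so *Sox4* entered no count of calls. The highest single cell, an E8.25 HPC, had 99.8 CPM.

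The counts behind *Sox4* were few. In the 460 cells with the gene the median was 4 counts and 79.6% had fewer than 10. The medians in cells with the other members were 10 counts for *Sox6*, 14 for *Sox17*, 26 for *Sox18*, 39 for *Sox7* and 1062 for *Sox11*. Among 1023 genes found in a share of cells within 5 points of that of *Sox4* (49.7%), the median gene had 21 counts per cell with it, and 8.5% had 4 or fewer. The shared bases with *Gm26735* lie in *Sox4* exons, how the counting treated such bases is not given in the sources used here, and their part in the low counts was not tested. At 10 counts or more, *Sox4* was found in 3.37% of E8.5 HPC and 21.7% of E9.5 HPC. The E9.5 cells were the deeper, with a median total of 3082740 counts against 1555240 at E8.5. With cells thinned to equal depth, the shares with any *Sox4* count were 34.8% at E8.5 and 40.0% at E9.5. The part of depth in the difference at 10 counts was not tested. The 2 mesoderm lanes at E7.75 differed, with 54.7% in lane 7 and 72.4% in lane 8.

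**Figure D5:**
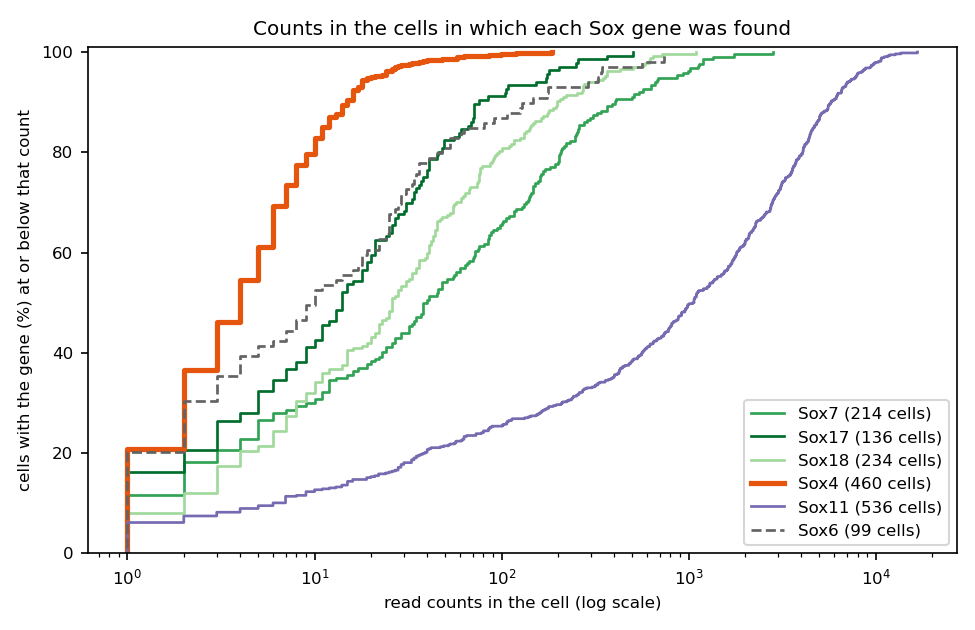
Cumulative share of cells (y axis, %) against the read counts of the gene in the cell (x axis, log scale), for cells with 1 or more counts of each of the 6 Sox genes. The *Sox4* curve lies left of the others, with a median of 4 counts, and the *Sox11* curve far to the right, with a median of 1062.

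*Sox4* and *Sox11* were found together in 44 of 79 E8.5 Endo cells, and *Sox4* without *Sox11* in 1 of them. In E10.5 HPC, 51 of 87 cells had *Sox4* without *Sox11*, 4 had both and 1 had *Sox11* alone. Of 8 genes linked to SoxC in the literature, 7 are in the filtered table (*Dcx* is not), and 6 of them passed the filter in E8.5 Endo against E8.5 HPC. There 4 were higher and none lower, beside 17.9% of all genes higher and 10.4% lower. They were *Tead2* (22.9 against 7.77 CPM), a Hippo pathway factor, *Zeb1* (209 against 33.1 CPM), an EMT factor, *Marcks* (5711 against 1111 CPM) and *Dpysl3* (254 against 34.0 CPM). In E8.5 EryP against HPC, 4 were lower (*Zeb1*, *Zeb2*, *Marcks*, *Dpysl3*) and *Tubb3*, a tubulin gene, was higher (18.9 against 2.07 CPM), beside 18.1% of all genes lower and 8.60% higher. From E7.25 to E7.75 mesoderm, where *Sox11* was lower, 1 of 6 was higher (*Zeb1*) and none lower, beside 4.92% and 5.46% of all genes. From E8.5 to E10.5, also with lower *Sox11*, HPC had none of 5 higher and 2 lower (9.02% and 12.0%). Mk had none of 3 past 2-fold (16.3% and 12.7%). Endo, EryP and HPC were sorted by different gates, whose part cannot be told apart. A link to the SoxC genes was not tested.

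*Sox6* was scarce throughout and absent from E7.25 mesoderm. No cell there had a count, and a count of 0 allows a share of up to 2.04%. At E7.75 it was found in 30 of 140 (21.4%, 14.9 to 29.2%), with a mean of 2.88 CPM and a highest cell of 108.9 CPM. The lanes at E7.75 gave 22.6% and 20.7%. In HPC the share lay between 11.0% (E8.25) and 23.0% (E10.5, 20 of 87 cells, 14.6 to 33.2%), with overlapping intervals and means between 2.46 and 6.00 CPM. E8.5 EryP held it in 3 of 66 cells (4.55%), and 1 of these with 182 CPM gave nearly the whole mean of 2.81 CPM. In E10.5 Endo it was found in 9 of 61 cells (14.8%, 6.98 to 26.2%) against 2 of 79 at E8.5. The E10.5 mean of 18.3 CPM was its highest, higher than at E8.5 (0.325 CPM, log2 ratio 3.86) and than in E10.5 HPC (2.22), but the 7 highest cells held 99.9% of it. With means of log2 values these ratios were 0.60 and 0.04.

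The 10 erythroid genes linked to *Sox6* were set beside it. Erythroid genes can be higher in cells sorted as TER119+ by the sort alone, and a link to *Sox6* was not tested. In E8.5 EryP against E8.5 HPC, 9 were higher, beside 8.60% of all genes, among them the embryonic globin *Hbb-y* (20157 against 184 CPM) and *Klf1*, an erythroid factor (140 against 8.61 CPM), and *Bcl11a* was lower (13.5 against 59.9 CPM), where *Sox6*, under the level filter, had 2.81 against 6.00 CPM, or 0.0446 against 3.49 CPM without the highest cell of each. From E7.25 to E7.75 mesoderm, 5 of the 5 that passed the filter were higher, beside 4.92% of all genes, such as *Hbb-bh1* (15.0 and 498 CPM) and *Klf1* (0.308 and 13.3 CPM). Within E7.75 mesoderm, *Gata1* was found in 16 of 30 cells with *Sox6* (53.3%) and 73 of 110 without (66.4%), and *Etv2* in 43.3% and 68.2%.

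For shares of cells, adjacent populations in the order of a gene mostly had overlapping intervals. The exceptions were the step from the Endo populations to E8.25 HPC for *Sox17*, the steps from Endo to E8.25 HPC and from E8.5 HPC to E10.5 HPC for *Sox18*, and the step from E10.5 Endo to E8.25 HPC for *Sox11*. Across the means of the 12 populations with more than 3 cells, as log2(mean CPM + 1), *Sox17* and *Sox18* had a Pearson r of 0.90, *Sox7* and *Sox11* of 0.84, *Sox7* and *Sox17* of 0.80, and *Sox4* and *Sox11* of 0.16. Among 12193 genes, those most like *Sox18* were *Clec14a* (r 0.99), *Mmrn2* (0.99) and *Pcdh12* (0.98), all highest in E10.5 Endo, and those most like *Sox7* were *Cttnbp2*, *Mmp14* and *Efna1* (0.99, 0.98 and 0.98). *Pcdh1*, *Nr5a2* and *Igfbp3* were most like *Sox17*, *Yap1* (0.97), *Peg3* and *Bmp2* most like *Sox11*, *Hmga2* (0.95), *Cmtm7* and *C1galt1c1* most like *Sox4*, and *Gm6969* (0.87), *Klhl8* and *Uqcc1* most like *Sox6*. These are descriptions over 12 points that share flow cells, are on different lanes and differ in depth.

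The other 4 Sox genes of the filtered table had patterns of their own. *Sox9* was found in 71.4% of E7.25 and 41.4% of E7.75 mesoderm cells, in 2 E8.5 Endo cells and 1 E8.5 EryP cell, and in no cell of the other populations. *Sox5*, of the same group as *Sox6*, was found in 3.40% of mesoderm cells at E7.25 and in 23.6% at E7.75. *Sox12*, the remaining SoxC gene, was found in 592 of the 926 cells and *Sox13* in 26.4% of E7.75 mesoderm cells and 27.9% of E10.5 Endo cells.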

How the data were processed

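Yolk sac cells were sorted, captured on the Fluidigm C1 system, prepared with Nextera XT and sequenced as paired 100-base reads by the authors, who aligned them with Rsubread to Ensembl mouse 84 (GRCm38) and counted genes with featureCounts. The deposited count tables hold read counts for 1073 captured cells and, after the scater filter, 926 cells and 15967 genes. The deposited signal table (CPM) holds, per cell, the counts times a single factor from scran. Tool versions are not given in the sources used here. Capture sites were imaged by the authors, and no doublet caller was run here.

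A gene was found in a cell at 1 count or more. Shares have exact 95% binomial intervals (Clopper-Pearson) and count sums exact Poisson intervals. A share of 0 allows 3 cells of the total, and a level of 0 was set to 3 counts over the population in folds written as "at least". Levels are means of CPM, and ratios are log2 of mean CPM + 1. A gene entered a count of calls with a mean of 10 CPM in either population and was called past 2-fold. No test was made, because cells of 1 sample are not replicates. No per-cell column was left unmapped to its population (0 columns). The genes described, the linked lists (endothelial and arterial, erythroid and SoxC), the marker lists and the 3 genes most like each member by Pearson r were chosen with earlier results of these data known. Gene places and transcripts were read from GENCODE M21, and no sequence is reported here. Ratios and intervals were tested on simulated data. Tools were matplotlib 3.10.9, scipy 1.17.1, pandas 2.3.3 and numpy 2.4.6 under Python 3.11.15.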

Additional observations from a re-analysis of the deposited data

How the results depend on the processing

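Every ratio past 2-fold kept its direction under the settings tried. Ratios within 2-fold or under the level filter did not always: that of *Sox4* for E10.5 Mk over HPC went from -1.16 to 0.82 with all captured cells and own-total CPM together, and for E7.75 over E7.25 mesoderm from -0.10 to 0.58. No paired analysis was possible because the embryos or pools behind the cells are not named. The number of the 6 genes past 2-fold changed most without the filter on low values: it became 2 for E7.75 over E7.25 mesoderm (from 1), 2 for E8.5 over E8.25 HPC (from 1), 3 for E10.5 over E8.5 HPC (from 1), 4 for E8.5 Mk over HPC (from 0), 4 for E8.5 EryP over HPC (from 1), 2 for E8.5 Mk over EryP (from 1), 3 for E10.5 Mk over HPC (from 0) and 2 for E10.5 Mac over HPC (from 0). With a pseudocount of 10, E8.5 over E8.25 HPC gave 0. With means of log2(CPM + 1), that comparison gave 0, E8.5 Mk over HPC 1, E8.5 Mk over EryP 0 and E10.5 over E8.5 Endo 2 (from 4). Those 2 were *Sox7*, higher, and *Sox11*, lower, which was not among the 4. *Sox6*, *Sox17* and *Sox18* were then within 2-fold. E8.5 Mk over HPC also gave 1 with all captured cells and own-total CPM together, and 1 (*Sox11*, -1.32) without the highest cell of each population, a setting chosen after seeing the data. Using 1 mesoderm lane at a time gave 1 to 2 genes for E7.75 over E7.25. CPM of each cell's own total moved the median of all genes from 0.15 to -0.14 for E10.5 Endo over HPC, and means of log2 values moved it to -1.26. That scaling, in kept cells, changed no count of the 6 genes by more than 1.5 times. The share with all 3 SoxF genes was 1.37% in E8.25 HPC, 11.4% in E8.5 Endo and 18.0% in E10.5 Endo at 10 counts, and 42.1% in E10.5 Endo when thinned. By Spearman rho, 2 of the 18 genes most like the members were the same. Of 72 shares, 72 stayed within their interval with all captured cells, 66 when thinned and 37 at 10 counts. At these depths a count of 0 allows the shares given beside it. The causes were not tested.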

Other observations

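The unfiltered table holds 19 Sox genes, of which 9 are not in the filtered table. *Sox1* and *Sox14* were found in none of the 1073 captured cells. The other 7 were rare: *Sox30* in 8 cells, *Sox15* in 7, *Sox2* in 6, *Sox8* in 5, *Sox21* in 3, and *Sox3* and *Sox10* in 2 each. None of them was found in more than 3 kept cells of a population.

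*Sox12* in E10.5 Endo had a mean of 54.8 CPM, of which 1 cell with 2549 CPM gave most, and the mean without that cell was 13.3 CPM. *Sox5* was found in 14 of 61 E10.5 Endo cells against 3 of 79 at E8.5, but in 1.64% of the E10.5 cells at 10 counts or more. These values belong to no comparison above.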
